A study of Mus musculus with 6 samples.

Results

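Chemokines are small secreted proteins that guide migrating cells, and they act on receptors of the G-protein-coupled family. Atypical chemokine receptors bind the same ligands without classical G-protein signalling, and several of them take up and remove the ligand. In embryos, Cxcl12 and Cxcr4 guide progenitor cells and growing vessels, and CC ligands draw monocytes and macrophages into tissues. The module described here holds every gene whose symbol names it as a chemokine (Ccl, Cxcl, Cx3cl1), a chemokine receptor (Ccr, Cxcr, Cx3cr1) or an atypical receptor (Ackr) in the platform annotation. It comprised 55 of the 19057 genes measured, namely 35 ligands, 16 receptors and 4 atypical receptors. Each gene is represented by its brightest probe over all 6 arrays. A mean above 7.01, the median of all values in the table, marked 22 members (15 ligands, 3 receptors, 4 atypical receptors). Members were chosen by symbol. The probe of a gene and the mark above the median were selected on the mean over all 6 arrays, without the difference between tissues. The module itself was chosen with earlier results of these data known.

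The libraries were made from molar tooth germs of the lower jaw and from oral tissue of that jaw free of teeth and bone. All came from embryos of the outbred CD-1 mouse stock at embryonic day 13.5. RNA was hybridised to 1-colour Illumina bead arrays. Each of 3 litters gave 1 library of each tissue, pooled over several embryos, so n = 3 per tissue and each library averages over animals and over all cell types of the tissue. In such bulk samples, fewer cells of a type and less RNA per cell cannot be told apart.

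The sample labels contradict each other. Titles and descriptions name one set of 3 libraries as tooth germ, and the source name and tissue fields name the other set. Libraries are called here by their titles, and every difference is titled tooth germ minus titled oral tissue on the deposited log2 scale; if the other fields are right, every sign turns. In the libraries titled tooth germ, Msx1 of dental mesenchyme was higher by 1.47, Shh of dental epithelium by 0.78 and the epithelial factor Trp63 by 1.01. The muscle genes Myod1 and Actc1 had differences of -1.47 and -2.52 (limma, adjusted p between 1.6e-05 and 0.0022 for these 5 genes). Skeletal muscle markers were lower in titled tooth germ for 16 of 18 genes. The 6 arrays had identical medians by normalization, and Pearson's r across all probes was at least 0.988 for every pair of arrays.

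The promoters of 4 ligands are shown because these genes carry findings below: Cxcl12 as a lower ligand of high signal, Ccl12 and Ccl21a as lower ligands of the CC class, and Cxcl13 for its signal in a single library. Each run is the 250 bases before the RefSeq transcription start in GRCm38.p6, written 5′ to 3′ on the gene's strand. The windows are chr6:117168285-117168534, plus strand for Cxcl12, chr11:82101595-82101844, plus strand for Ccl12, chr4:42773992-42774241, minus strand for Ccl21a, and chr5:95956689-95956938, plus strand for Cxcl13. Capitals mark matches on either strand to 3 motifs, the TATA box TATAAA, the GC box GGGCGG and the AP-1 site TGANTCA.
Cxcl12: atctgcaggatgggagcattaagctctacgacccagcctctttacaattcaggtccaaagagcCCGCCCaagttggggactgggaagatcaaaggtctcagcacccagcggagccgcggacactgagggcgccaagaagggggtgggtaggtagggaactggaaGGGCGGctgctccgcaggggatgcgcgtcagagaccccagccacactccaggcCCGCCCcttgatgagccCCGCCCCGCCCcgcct
Ccl12: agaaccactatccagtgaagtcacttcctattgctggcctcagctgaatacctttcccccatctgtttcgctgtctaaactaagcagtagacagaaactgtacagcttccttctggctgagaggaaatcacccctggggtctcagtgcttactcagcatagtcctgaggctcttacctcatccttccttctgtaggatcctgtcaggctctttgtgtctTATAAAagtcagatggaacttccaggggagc
Ccl21a: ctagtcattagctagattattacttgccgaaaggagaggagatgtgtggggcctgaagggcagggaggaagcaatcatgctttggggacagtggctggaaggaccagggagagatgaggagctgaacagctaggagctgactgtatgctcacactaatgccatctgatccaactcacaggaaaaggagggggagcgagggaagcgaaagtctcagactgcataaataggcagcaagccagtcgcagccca
Cxcl13: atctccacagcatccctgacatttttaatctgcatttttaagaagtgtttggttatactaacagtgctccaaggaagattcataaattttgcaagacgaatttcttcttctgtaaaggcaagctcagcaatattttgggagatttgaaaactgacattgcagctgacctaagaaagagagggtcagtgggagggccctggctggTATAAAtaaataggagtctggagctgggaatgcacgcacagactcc

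The Cxcl12 window held 5 GC boxes, of which the last 2 overlap by 1 base, and 14 CG dinucleotides, against a median of 6 over all promoters of the table. Ccl12 and Cxcl13 each had 1 TATA box, starting 31 and 46 bases before the transcription start, and the Ccl21a window had no match. Of all 32851 promoter windows, 12.4% held the TATA box, 32.7% the GC box and 6.75% the AP-1 site. Promoters were available for 41 of the 55 members, in 45 windows, of which 12 held the TATA box, 8 the GC box and 5 the AP-1 site. No promoter was available for Ccl21c and Ccl4. A Cxcl14 window was available but is not shown, and it had no match to these motifs and 16 CG dinucleotides. A match describes letters only.

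The comparison addressed which genes of the module differ between a molar tooth germ and nearby tissue that forms no tooth. Of the 55 members 6 fell in titled tooth germ, all of them ligands, 0 rose, and 49 were not called (limma, Benjamini-Hochberg adjusted p under 0.05 over all 19057 genes). The called members were Cxcl14, Ccl21c, Ccl21a, Cxcl12, Ccl4 and Ccl12. Among all genes 5.81% were called in either direction, 2.39% higher and 3.42% lower. The share of the module called was 10.9%. Among the 22 members above the median 5 were called, a share of 22.7%, against 8.85% of all genes above the median. Both shares count Ccl21a and Ccl21c separately, although their values may not be independent observations. The median difference was -0.0035 over all 55 members and 0.0026 over all genes. With litter as a fixed block, 7 members were called, the same 6 lower ones and Cxcl1, which was higher; the share of all genes called was then 8.88%. With litter as a random block, 6 members were called, 0 of them higher, and Cxcl1 was not called (adjusted p = 0.0618). An unadjusted p under 0.05 was found for 14 members, to be set against 17.1% of all genes. The 2 groups of libraries did not overlap in 14 members, against 23.1% of all genes. They did not overlap in 10 of the 22 members above the median, against 29.4% of all genes above it. These 10 include Cxcl13, which passed the mark only through titled oral tissue. Its mean was 7.94 there and 6.95 in titled tooth germ, below the median of all values.

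**Figure D1:**
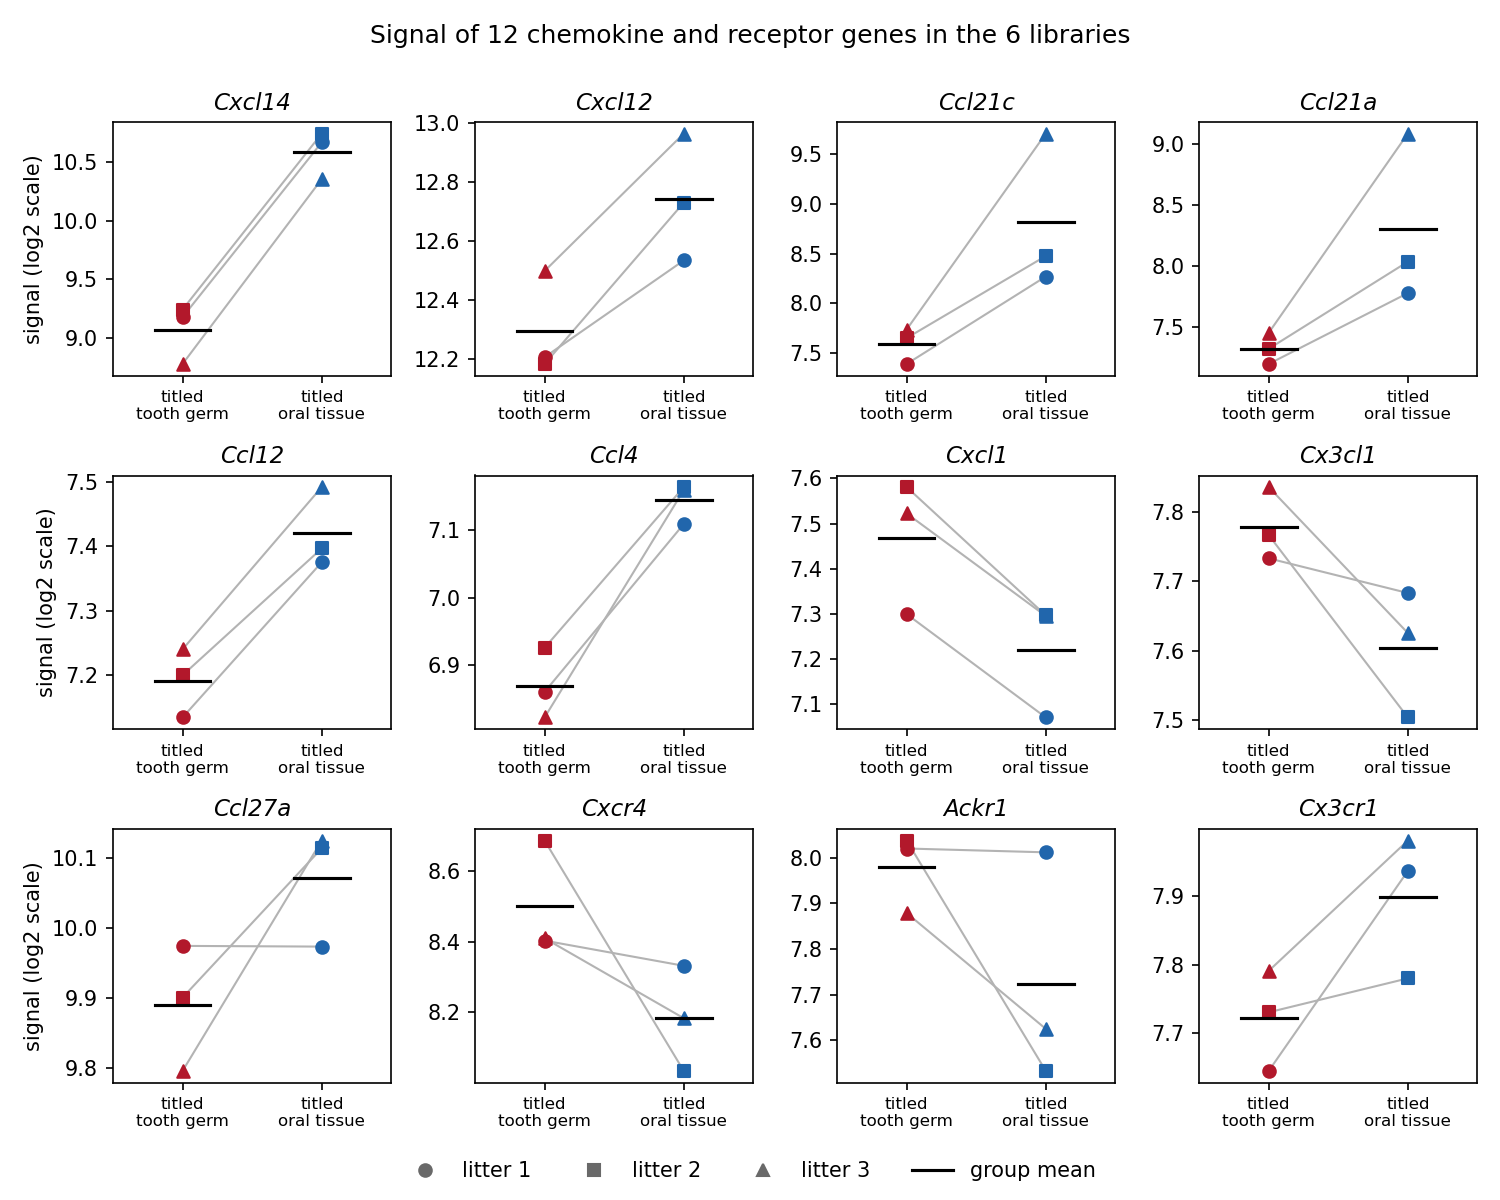
Signal on the deposited log2 scale (vertical axes, a separate range for each gene) of 12 members in the 3 libraries titled tooth germ (red, left) and the 3 titled oral tissue (blue, right). Symbols give the litter, grey lines join libraries of the same litter, and black bars are group means; Cxcl14 lies between 8.77 and 9.24 in titled tooth germ and between 10.36 and 10.75 in titled oral tissue.

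Cxcl14, a CXC ligand made by many epithelia and mesenchymes whose signalling receptor is not settled, changed most. It read 9.17, 9.24 and 8.77 in titled tooth germ, against 10.67, 10.75 and 10.36 in titled oral tissue. The groups did not overlap, and all 3 titled tooth germ libraries lay more than 1 unit below every titled oral tissue library. Titled tooth germ averaged 9.06 ± 0.25 and titled oral tissue 10.59 ± 0.21 (SD over 3 libraries each). On the log2 scale the difference was -1.53 (SE 0.13, limma adjusted p = 4.1e-05), and Cxcl14 was 2.89-fold higher in titled oral tissue. The differences within litters 1, 2 and 3 were -1.50, -1.51 and -1.58. A dimmer probe of Cxcl14 differed by -1.40 and was called as well. Cxcl14 was called in all 18 alternative settings tried, with differences between -1.65 and -1.39.

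Cxcl12, the CXC ligand that mesenchymal and stromal cells make and that acts on Cxcr4 and Ackr3, read 12.21, 12.18 and 12.50 in titled tooth germ, against 12.53, 12.73 and 12.96 in titled oral tissue. The highest titled tooth germ library lay just below the lowest titled oral tissue library, and the groups did not overlap. Titled tooth germ averaged 12.30 ± 0.18 and titled oral tissue 12.74 ± 0.21 (SD over 3 libraries each). Cxcl12 differed by -0.45 (SE 0.11, adjusted p = 0.0395), and its signal in titled oral tissue was 1.36-fold that in titled tooth germ. Within litters the differences were -0.33, -0.55 and -0.47. The call was lost in 7 of 18 alternatives, among them leaving out titled tooth germ library 1 or 2 (adjusted p = 0.139 and 0.136), titled oral tissue library 2 or 3 (0.0856 and 0.139), and litter 1 or 2 (0.0745 and 0.211). The differences then lay between -0.51 and -0.34.

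Among the further probes of Cxcl12, the brighter pair differed by -0.92 and -0.73 (adjusted p = 0.0040 and 0.0054 over all probes), and the dimmer pair, with means at or below the median, differed by -0.037 and 0.012 and was not called. The brightest Cxcl12 probe thus gave a smaller difference than the next probes. Over the module, 28 probes were not the brightest of their gene. Of these, 4 were called, all lower in titled tooth germ and all in Cxcl12, Cxcl14 or Ccl21c. Those genes were already called by their brightest probes, and no share over all probes of the array was counted.

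**Figure D2:**
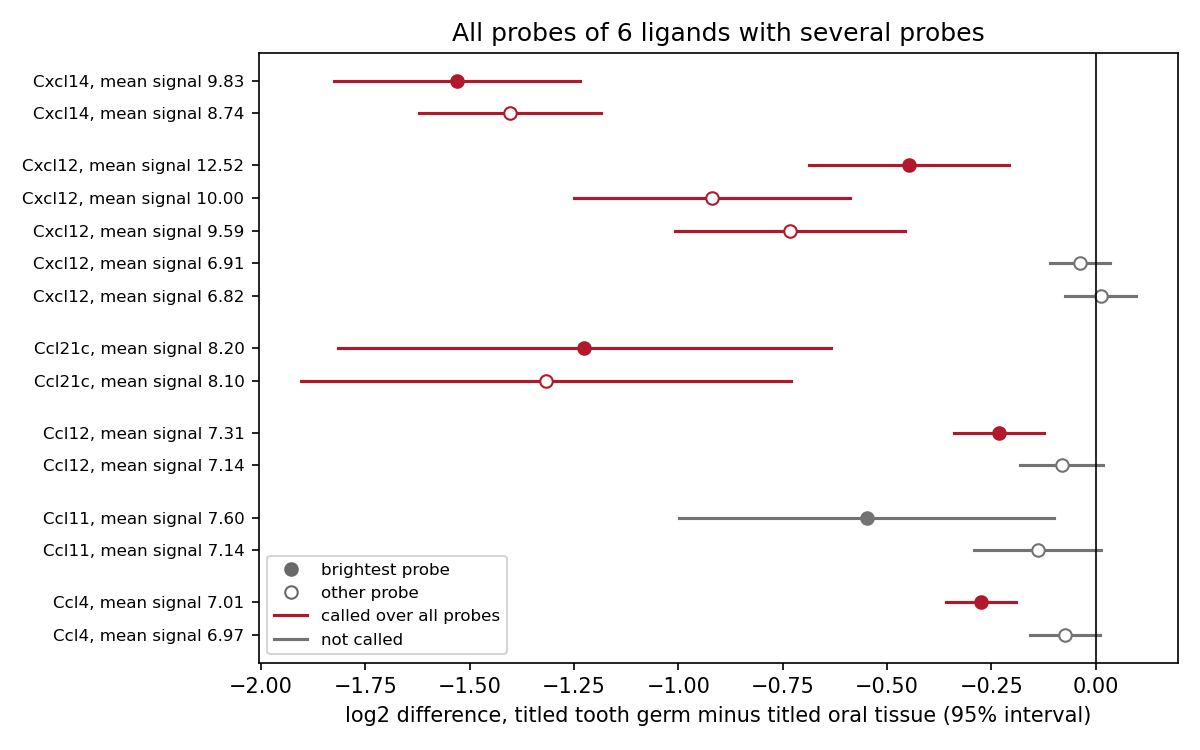
Log2 difference, titled tooth germ minus titled oral tissue, with its 95% interval (horizontal axis), for every probe of 6 ligands that have several probes (rows, brightest first within a gene, with the mean signal over 6 arrays). Filled points are the probes used for the gene, open points the other probes, and red marks probes called over all probes; both Cxcl14 probes and both Ccl21c probes are called, against 3 of 5 for Cxcl12 and 1 of 2 for Ccl12 and Ccl4.

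The receptors of Cxcl12 did not pass the test. Cxcr4, its signalling receptor, read 8.40, 8.69 and 8.41 in titled tooth germ, against 8.33, 8.03 and 8.18 in titled oral tissue. The groups did not overlap, and the direction was opposite to that of the ligand. The difference of 0.32 (SE 0.10, 95% interval 0.10 to 0.54) had an adjusted p of 0.104, and it was not called in any of 18 alternatives. Within litters Cxcr4 differed by 0.07, 0.65 and 0.23, so litter 2 held the largest value. Ackr3, the atypical receptor that scavenges Cxcl12, differed by 0.016 (SE 0.10, 95% interval -0.21 to 0.24, adjusted p = 0.965) at a dim probe, with 7.01, 7.15 and 7.42 in titled tooth germ, against 6.97, 7.32 and 7.24 in titled oral tissue. The groups overlapped.

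Ccl21, the CC ligand of Ccr7 that lymphatic vessels and lymphoid tissue make, is encoded by several copies in the mouse. The RefSeq table lists 6 genes on chromosome 4 under this name or as its synonyms. Promoter windows of 300 bases were compared with that of Ccl21a without gaps, at shifts of up to 2 bases. The window of Ccl21d matched at 297 bases, those of Gm10591 and Gm13304 at 296 each, and that of Ccl21b at 97. A count without gaps falls when a base is inserted or lost, so the 97 does not measure divergence. No window of Ccl21c was compared, and whether the Ccl21a and Ccl21c probes read each other's transcripts was not tested, so their values may not be independent observations. Ccl21c read 7.39, 7.65 and 7.74 in titled tooth germ, against 8.27, 8.48 and 9.71 in titled oral tissue. Ccl21a read 7.20, 7.32 and 7.45 in titled tooth germ, against 7.78, 8.03 and 9.08 in titled oral tissue. At both genes titled oral tissue library 3 stood far above libraries 1 and 2, and the groups did not overlap.

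The Ccl21c difference was -1.22 (SE 0.28, adjusted p = 0.0243), 2.34-fold higher in titled oral tissue, and that of Ccl21a was -0.97 (SE 0.25, adjusted p = 0.0408), 1.96-fold higher. Without titled oral tissue library 3 both stayed called at a smaller size, -0.78 (SE 0.11, adjusted p = 0.0015) for Ccl21c and -0.58 (SE 0.096, adjusted p = 0.0042) for Ccl21a. The Ccl21c call was lost in 6 and the Ccl21a call in 8 of 18 alternatives, with adjusted p of 0.287 for Ccl21c and 0.333 for Ccl21a under robust variance shrinkage. Leaving out titled tooth germ library 1, 2 or 3 ended both calls, with adjusted p between 0.0617 and 0.0915 for Ccl21c and between 0.0993 and 0.13 for Ccl21a, at differences of -0.91 or more in size. Ccl21a was also not called without litter 2 (-1.10, adjusted p = 0.0938). Ccr7, the receptor of Ccl21 and Ccl19, differed by 0.079 (95% interval -0.02 to 0.18, adjusted p = 0.410), and Ccl19, the other ligand of Ccr7, by -0.059 (adjusted p = 0.454). Both read near the median of all values.

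Cxcl13 and Ccl11 shared the high value in titled oral tissue library 3. Cxcl13, the ligand of Cxcr5 that organises B-cell areas of lymphoid tissue, read 6.92, 7.03 and 6.89 in titled tooth germ, against 7.13, 7.08 and 9.60 in titled oral tissue. Its difference of -0.99 (SE 0.50) was not called (adjusted p = 0.345), and without titled oral tissue library 3 it was -0.16 (adjusted p = 0.104). Ccl11, the eotaxin that draws eosinophils through Ccr3, read 7.29, 7.41 and 7.28 in titled tooth germ, against 7.67, 7.40 and 8.55 in titled oral tissue. These groups overlapped, and the difference of -0.55 (SE 0.21) was not called (adjusted p = 0.200), but it was called without titled oral tissue library 2 (-0.78, adjusted p = 0.0353). Of the 22 members above the median, 10 had their highest signal of all 6 libraries in titled oral tissue library 3 and 0 their lowest. The same counts were not made over all genes, so whether they reflect these members or the library as a whole was not tested. A member lower in titled tooth germ without overlap has its highest value in a titled oral tissue library by definition.

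Markers of lymphatic and lymphoid cells were examined beside these ligands, in lists chosen after the values had been seen. Among all genes 5.81% were called, and 8.88% with litter as a fixed block. Of 8 lymphatic endothelium genes 2 were lower, Lyve1 (-0.56) and Prox1 (-0.38), and 4 with litter as a block. The mean level of the list was 8.37 to 8.43 in titled tooth germ, against 8.55 to 8.75 in titled oral tissue, where library 3 was highest. The 2 called genes were highest in titled oral tissue library 1. Across its libraries 1, 2 and 3 Lyve1 read 7.95, 7.59 and 7.83, and Prox1 7.62, 7.38 and 7.59. Reln, not called without the block, read 8.29, 8.01 and 8.73 there. Of 10 genes of lymphoid tissue organizer cells 1 was lower (Vcam1, -0.69) and 1 higher (Tnfsf11, 0.29). With litter as a block 3 were higher, as Madcam1 and Relb were then also called (adjusted p = 0.0121 and 0.0192). The mean levels of the groups overlapped (7.64 to 7.68 in titled tooth germ, 7.62 to 7.70 in titled oral tissue). Of 9 genes of lymphoid inducer cells and lymphocytes 0 were called by limma, and 1 had an unadjusted p under 0.05, Cd3g (-0.15, adjusted p = 0.058), which was called with litter as a block (adjusted p = 0.0267). The part of these cells in the ligand values was not tested.

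**Figure D3:**
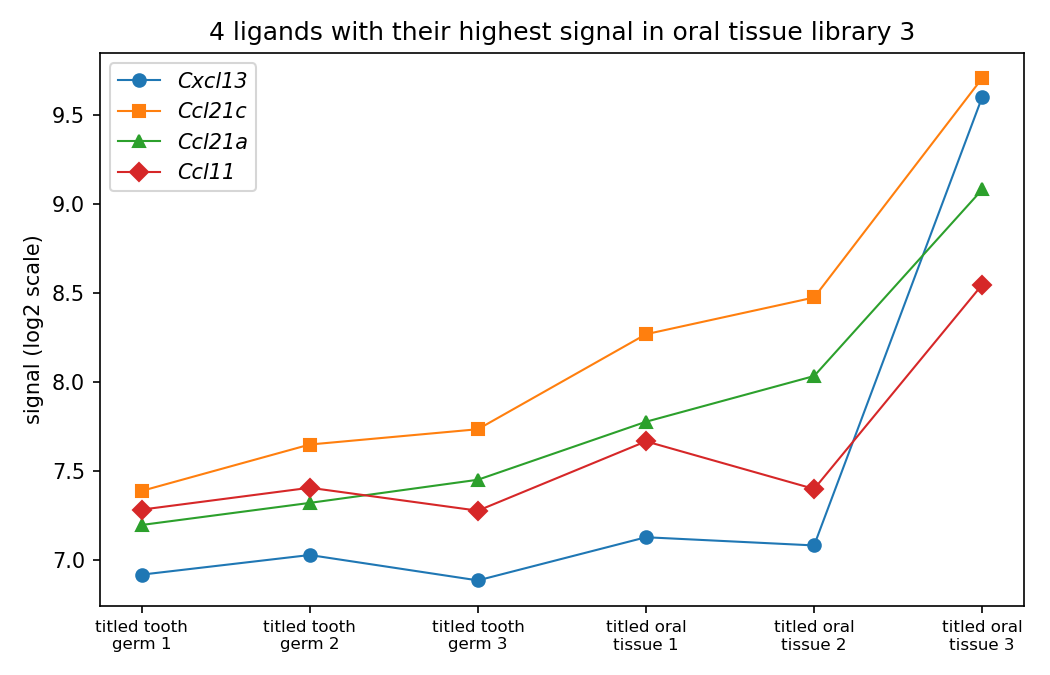
Signal on the deposited log2 scale (vertical axis) of Cxcl13, Ccl21c, Ccl21a and Ccl11 in each of the 6 libraries (horizontal axis, titled tooth germ left, titled oral tissue right); lines join the values of a gene. In titled oral tissue library 3 the 4 genes reach 9.60, 9.71, 9.08 and 8.55.

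The remaining called members were inflammatory CC ligands of low signal. Ccl12, a mouse ligand of Ccr2 that draws monocytes, read 7.13, 7.20 and 7.24 in titled tooth germ, against 7.38, 7.40 and 7.49 in titled oral tissue. The groups did not overlap, and the litters differed by -0.24, -0.20 and -0.25. The difference was -0.23 (SE 0.053, adjusted p = 0.0254), 1.17-fold higher in titled oral tissue, and the call was lost in 7 of 18 alternatives. Among these were leaving out titled tooth germ library 1 or 2 (adjusted p = 0.127 and 0.0827), titled oral tissue library 3 (0.0884) or any litter (0.0944 to 0.148). Another Ccl12 probe differed by -0.081 and was not called. Ccl4, a macrophage inflammatory ligand, read 6.86, 6.93 and 6.82 in titled tooth germ, against 7.11, 7.16 and 7.16 in titled oral tissue. It was the brightest member not above the median, and its groups did not overlap.

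Ccl4 differed by -0.27 (SE 0.038, adjusted p = 9.1e-04), and it was called in all 17 alternatives that kept it, but another Ccl4 probe differed by -0.073 and was not called. Markers of leukocytes and macrophages were examined beside these ligands. Of 17 such genes 9 were called lower in titled tooth germ and 0 higher, a share of 52.9%, against 5.81% of all genes. The lower ones included C1qc (-0.62), Laptm5 (-0.58) and Mrc1 (-0.55). Spi1 (0.032), Itgam (0.011) and Ptprc (0.0069) lay in the other direction and were not called. Mean levels of the list were 7.66 to 7.77 in titled tooth germ, against 7.92 to 8.06 in titled oral tissue. The count of 9 was 5 without titled tooth germ library 1, 5 without titled tooth germ library 2, 4 without litter 1 and 5 without litter 3. The pan-leukocyte gene Ptprc, Fcer1g and Itgam had means at or below the median. Of 6 mast cell genes 3 were lower, a share of 50%, led by the carboxypeptidase Cpa3 (-1.57). Their mean levels were 7.44 to 7.46 in titled tooth germ, against 7.68 to 7.82 in titled oral tissue. Kit (0.18) and Fcer1a (0.087) lay in the other direction, and neither they nor Mcpt4 (-0.028) were called. The part of these cells in the ligand values was not tested.

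Other ligands above the median were not called. Cxcl1, a neutrophil-attracting ligand of Cxcr2, read 7.30, 7.58 and 7.52 in titled tooth germ, against 7.07, 7.30 and 7.30 in titled oral tissue. The library of each litter titled tooth germ was the higher one, by 0.23, 0.28 and 0.23, and the groups stood close without overlap. The difference of 0.25 (SE 0.082) had an adjusted p of 0.123, of 0.0078 with litter as a fixed block and of 0.0618 as a random block. Cx3cl1, the membrane-bound ligand fractalkine, read 7.73, 7.77 and 7.84 in titled tooth germ, against 7.68, 7.50 and 7.63 in titled oral tissue. Its groups did not overlap either, and the difference was 0.17 (SE 0.068, 95% interval 0.02 to 0.32, adjusted p = 0.201).

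Ccl9, a ligand of Ccr1, overlapped between the groups, with 8.48, 8.12 and 8.36 in titled tooth germ, against 7.92, 8.36 and 8.03 in titled oral tissue (difference 0.21, SE 0.12, adjusted p = 0.407). The sign in litter 2 was opposite to that in the others, and without litter 2 Ccl9 was called (0.44, adjusted p = 0.0315). Ccl27a, the skin chemokine that binds Ccr10 and has near-identical copies in the mouse, so that its probe is uncertain, read 9.97, 9.90 and 9.80 in titled tooth germ, against 9.97, 10.11 and 10.12 in titled oral tissue. Its libraries of litter 1 were equal within 0.01, and the difference was -0.18 (SE 0.084, adjusted p = 0.30). The differences of Ccl25, which draws T-cell precursors to the thymus, Ccl7, a monocyte-attracting ligand, and Cxcl16, the membrane-bound ligand of Cxcr6, were -0.042, -0.017 and 0.090, with adjusted p-values of 0.814, 0.908 and 0.426.

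**Figure D4:**
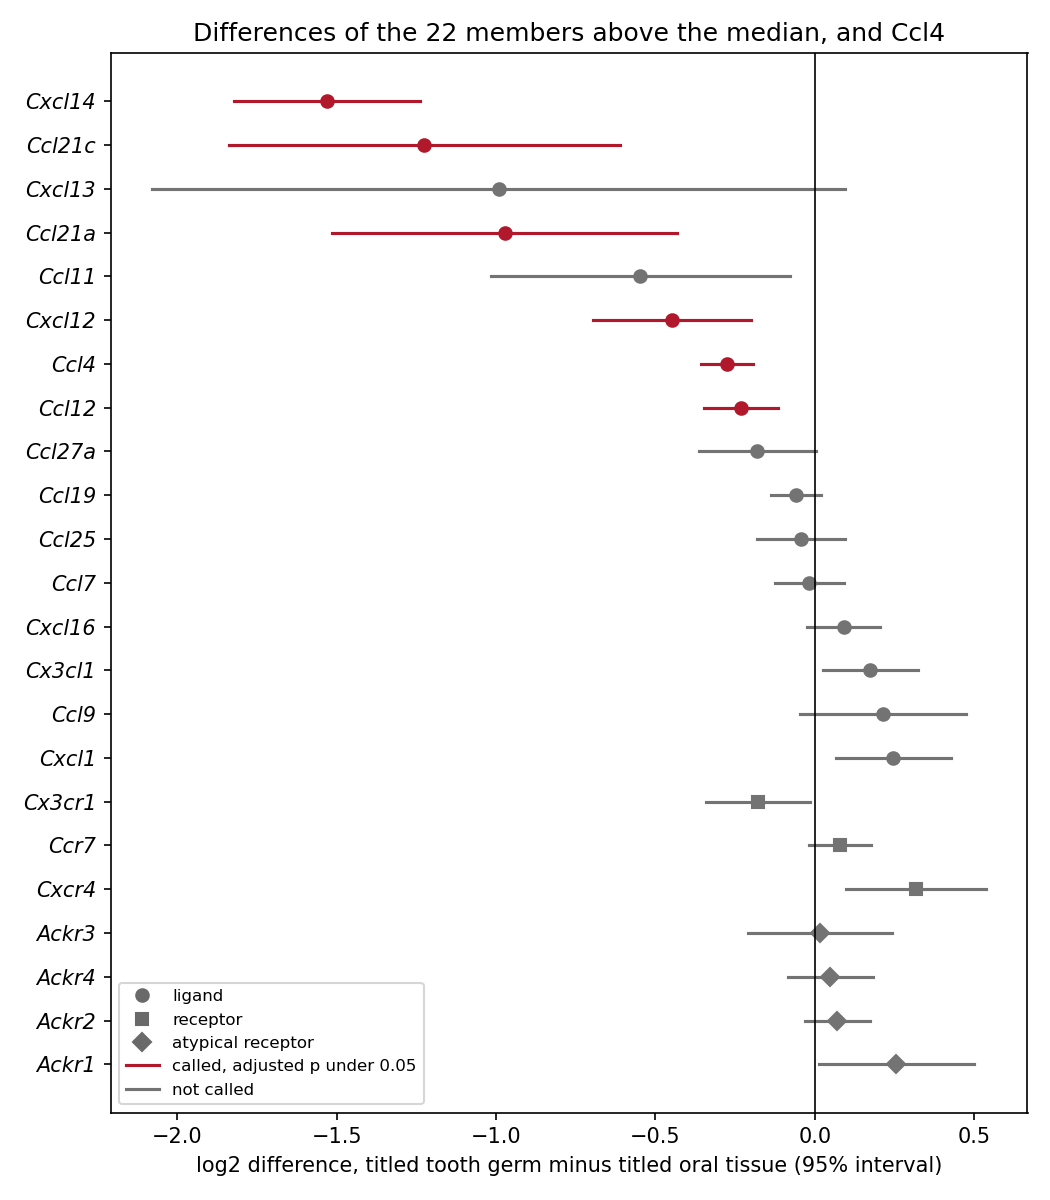
Log2 difference, titled tooth germ minus titled oral tissue, with its 95% interval (horizontal axis), for the 22 members above the median and Ccl4 (rows). Circles are ligands, squares receptors and diamonds atypical receptors, and red marks genes called at an adjusted p under 0.05. The 6 called genes are ligands to the left of 0, from -1.53 for Cxcl14 to -0.23 for Ccl12.

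No receptor was called. Among the 16 receptors 3 were above the median, Cxcr4, Cx3cr1 and Ccr7. None of the 16 nor of the 4 atypical receptors passed limma's test. An unadjusted limma p under 0.05 was found for 5 of these 20, against 17.1% of all genes. Cx3cr1, the fractalkine receptor of macrophages, read 7.64, 7.73 and 7.79 in titled tooth germ, against 7.94, 7.78 and 7.98 in titled oral tissue. Each litter had the lower value in titled tooth germ, though the groups overlapped slightly, and the difference of -0.18 (SE 0.075, 95% interval -0.34 to -0.01) had an adjusted p of 0.242. The values of Cx3cr1 and of its ligand Cx3cl1 thus lay in opposite directions, neither past the test.

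Ackr1, a receptor of red cells and venules that binds many inflammatory chemokines, read 8.02, 8.04 and 7.88 in titled tooth germ, against 8.01, 7.53 and 7.62 in titled oral tissue. Titled oral tissue library 1 lay within the range of the libraries titled tooth germ. The difference was 0.26 (SE 0.11, adjusted p = 0.256), and without titled oral tissue library 1 it was 0.40 and called (adjusted p = 0.0145). Ackr2, a scavenger of inflammatory CC chemokines, and Ackr4, which takes up Ccl19, Ccl21 and Ccl25, differed by 0.070 and 0.049 (adjusted p = 0.506 and 0.761). Their 95% intervals were -0.03 to 0.17 for Ackr2 and -0.08 to 0.18 for Ackr4.

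The 33 members at or below the median had means between 6.77 and 7.01, where the scale may understate a difference. They were 20 ligands and 13 receptors, and Ccl4 alone was called, a share of 3.03%, against 0.463% of all genes at or below the median. The other 32 differed by -0.11 to 0.055. Beside Ccl4 the smallest p-values were those of Ccl26 among the ligands (0.055, adjusted p = 0.325) and of Ccr8 (-0.078, adjusted p = 0.148) and Cxcr5 (-0.11, adjusted p = 0.170) among the receptors. Ccr8 read 6.81, 6.85 and 6.86 in titled tooth germ, against 6.93, 6.92 and 6.89 in titled oral tissue. On either side of the threshold lay Ccr7 at a mean of 7.07, Ccl19 at 7.07 and Ackr2 at 7.08 above it, and Ccl4 at 7.01, Ccl24 at 7.01 and Ccr6 at 6.98 below it.

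Genes that belong to the chemokine family or act with it, but fall outside the symbol rule, were mostly not called. Among 11 such genes measured, 2 rose and 1 fell, and the other 8 did not pass the test (median 0.0062). The share called was 27.3%, against 5.81% of all genes and 8.85% of all genes above the median. Pf4, the platelet factor of the CXC class, read 7.88, 8.06 and 7.73 in titled tooth germ, against 8.38, 8.32 and 8.49 in titled oral tissue (-0.50, SE 0.091, adjusted p = 0.0057). Of 7 platelet and megakaryocyte genes Pf4 was the single one called. Cd74, a receptor of the cytokine Mif, rose by 0.46 (SE 0.086, adjusted p = 0.0074), and Mif rose by 0.24 (SE 0.051, adjusted p = 0.014). Cd74 read 7.64, 7.66 and 7.88 in titled tooth germ, against 7.16, 7.20 and 7.44 in titled oral tissue, without overlap.

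Of 25 genes of chemokine receptor signal transduction 1 rose, 1 fell and 23 did not pass the test (median -0.010). The share called, 8%, was near the 5.81% of all genes and the 8.85% of all genes above the median. Rgs16, which shortens signals of G-protein-coupled receptors, had the largest difference (-0.90, SE 0.10, adjusted p = 2.4e-04) and read 7.86, 7.90 and 8.26 in titled tooth germ, against 8.94, 8.86 and 8.93 in titled oral tissue. The kinase gene Jak2 was higher by 0.34 at an adjusted p of 0.04997, just under the threshold, and its call was lost whenever any 1 library or litter was left out. With litter as a block Grk5, a receptor kinase, was called higher too (0.23, adjusted p = 0.0487). Of 19 genes that present or process chemokines 4 rose, a share of 21.1%, 0 fell and 15 were not called (median 0.051). They were the matrix protease Mmp9 (1.32, SE 0.21), the heparan sulfate proteoglycan Sdc2 (0.54, SE 0.094), and Ext1 and Hs6st1 of heparan sulfate synthesis (0.41 and 0.37, SE 0.073 and 0.088).

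Markers of other tissues that could hold these ligands differed between the groups to unlike extents, where 5.81% of all genes were called. Tendon and connective tissue genes were lower in titled tooth germ for 6 of 12, with mean levels of 9.40 to 9.44 in titled tooth germ, against 9.79 to 9.96 in titled oral tissue. Skeletal muscle marker levels were 8.70 to 8.87 in titled tooth germ, against 9.99 to 10.51 in titled oral tissue. Of 14 endothelial genes 1 was lower (Tek, -0.33), and 3 with litter as a block (Tek, Emcn and Robo4), while 0 were called in 8 of the 9 settings that left out a library or litter. Their mean level was 8.95 to 8.97 in titled tooth germ, against 9.08 to 9.21 in titled oral tissue. Surface epithelium genes were higher for 7 of 13 and lower for 1. Pericyte and smooth muscle genes went both ways, with Rgs5 higher by 1.12, Acta2 (-1.49) and Myh11 (-0.21) lower, and 6 of 9 not called. Of the dental lists, 7 of 12 epithelial genes rose and 1 fell, and 5 of 13 mesenchymal genes rose. Among 10 neuron genes 3 fell, and among 6 genes of Schwann cells and glia Sox10 alone fell (-1.19). With litter as a block the called counts were 7 of 13 dental mesenchyme genes and 5 of 10 neuron genes. The part of these tissues in the Cxcl14 and Cxcl12 values was not tested.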

How the data were processed

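RNA of 6 libraries, 3 titled tooth germ and 3 titled oral tissue, was measured on Illumina bead arrays. The deposited table holds 1 signal for each probe and library on a log2 scale. The tool named in the submitters' processing notes is lumi 2.8.0; the transformation (plain log2 or variance-stabilising) and any background correction are not stated in them. Sorted columns differed by at most 0.000827, as quantile normalization by the authors would leave them, and the values were taken as they stood. No detection p-values were used. Of 45281 probes, 34885 had 1 gene symbol, 18 several and 10378 none in the platform annotation. All 55 members matched a RefSeq (GRCm38.p6) gene of the same symbol. Promoters are from RefSeq.

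Titled groups were tested in limma 3.58.1 under R 4.3.3 (lmFit, then eBayes with trend, 4 residual degrees of freedom), with Benjamini-Hochberg adjustment over 19057 genes and calls at an adjusted p under 0.05. Levels are means ± SD over n = 3, differences carry moderated standard errors, and folds take the scale as plain log2. The procedure was tested on simulated data. Members and gene lists were chosen with earlier results of these data known. Every member above the median was named, with members below it where called or of smallest p, up to 3 called members of each list by size, and 5 genes that check the labels; in some lists other called members were named after their values were seen.

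Libraries of the same number share a litter per the labels. Deviations from group means correlated at 0.389, 0.227 and 0.258 within litters and at -0.251 to -0.0749 between them (12150 genes above the median). The main test has no litter block; blocked values are given where they change a call among the members, and for lists where they change a count by over 1.5 times or a gene named. P-values measure the spread between pooled libraries. The number of arrays limits the precision. The alternatives were litter as a fixed or random block, repeated quantile normalization, median centring, dropping dim probes, averaging each gene's probes, eBayes with no trend or with robust shrinkage, array weights, a stricter threshold, and leaving out each library or litter.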

Additional observations from a re-analysis of the deposited data

How the results depend on the processing

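All 6 called members kept their negative sign in every alternative that measured them. The count of called members, 6, was 7 with litter as a fixed replicate block, 6 as a random one and 3 with the mean of all probes, 3 with eBayes without a trend and 2 at an adjusted p under 0.01, and ranged from 2 to 7 when a library or litter was left out. Without titled tooth germ library 1 it was 3, with 1 of them higher, and without titled tooth germ library 2 it was 2, which were Cxcl14 and Ccl4. Of the 22 members above the median, 5 were called, and this count was 2 with the mean of all probes, 2 without a trend, 3 with robust shrinkage, 1 at the stricter threshold and 1 to 6 in the leave-one-out settings. For all genes the count of 1107 became 1693 with litter as a fixed replicate block, 1430 as a random one, 601 at the stricter threshold and 549 to 1025 when a library or litter was left out (734 without titled tooth germ library 2 and 668 without litter 3). Of the gene lists, the chemokine family genes outside the symbol rule had 0 to 3 calls, receptor signal transduction 1 and presentation and processing 1 to 4 when a library or litter was left out. In the same settings the counts were 4 to 9 for leukocyte and macrophage markers, 0 to 1 for endothelial, 4 to 7 for surface epithelium, 5 to 8 for dental epithelium, 3 to 6 for neuron, 0 to 1 for platelet, 0 to 3 for lymphatic endothelium and 1 to 2 for lymphoid organizer markers. The causes were not tested. Litter as a fixed block added Cxcl1 and changed no other call among the members. Repeated quantile normalization and median centring left the counts at 1107 and 6. The deposited arrays already shared nearly identical sorted values, so these 2 of the alternatives could hardly change a call and do not test stability. An alternative offset was not run, because the table is on a log scale. Signals near the median of all values could not be set against a background, which limits Ccl4, Ccl12, Ackr3 and most receptors.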
